A study of Mus musculus with 12 samples.

Results

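Whole-brain RNA of wild-type BALB/c mice was compared between 12 and 6 weeks of age. The comparison used 6 of the 12 arrays of the series, 3 per age, and these were chosen by their labels alone: the 3 arrays labelled wild type and 12 weeks old against the 3 labelled wild type and 6 weeks old. The other 6 arrays hold Il18 knockout brain of the same strain at the same ages and were used here only to ask whether the change with age differed between genotypes. Per the labels no animal was treated, each brain was kept in RNAlater and extracted whole, and the replicates were biological, with 1 Cy3-labelled Agilent one-colour array each. The labels do not give sex, and they do not give the time of day at which the brains were taken. Whole tissue was measured, so fewer cells of a type and less RNA per cell cannot be told apart in any value below.

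Between these ages a mouse passes from adolescence into young adulthood. Oligodendrocytes, the myelin-forming glia, are still maturing from their precursors while the production of new cells in the brain declines. Immediate early genes are switched on within minutes of neuronal activity, clock genes oscillate with the time of day, and interferon-stimulated and major histocompatibility complex (MHC) genes are induced by interferons. Il18 encodes interleukin-18, a cytokine made as a precursor and cut into its active form by caspase-1 in the inflammasome.

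Levels are given as log2 of the processed signal relative to the 75th percentile of the same array, so a level of 0 is the signal of a probe at that percentile. Levels of different probes cannot be set against each other, and only the same gene is compared between arrays. A gene was tested if its probe stood well above the background on each of the 3 arrays of either age, which gave 25965 genes. With limma and Benjamini-Hochberg adjustment over all of them, 39 genes passed an adjusted p of 0.05, or 0.15% of those tested. Of these, 20 rose with age (0.077%) and 19 fell (0.0732%). At limma's unadjusted p of 0.05 the count was 4374, or 16.8%, of which 2367 were higher at 12 weeks (9.12%) and 2007 lower (7.73%). The 3 arrays of one age lay entirely above the 3 of the other for 3321 genes higher at 12 weeks (12.8%) and 3188 lower (12.3%). The median change over all genes was 0.000907. The first principal component of the 6 arrays held 34.4% of the variance and separated the ages.

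All 6 arrays lay on 1 slide, but the ages were not spread evenly over its columns. The 3 arrays at 6 weeks and replicate 1 at 12 weeks lay in column 2, and replicates 2 and 3 at 12 weeks lay in column 1. These 2 arrays also had more spots well above background, 76.2% and 74.0%, against 65.9% to 66.8% on the other 4. For the main gene groups the value with slide column as a term is therefore given too, which rests on replicate 1 at 12 weeks against the 3 arrays at 6 weeks. With that term 5 of the 24 named genes called with age kept their call (Mical1, Nnt, Papola, Il33 and Rpe65) and 19 lost it, Erdr1, Atf3, Npas4, Mobp and Chrm1 among them. The labels give no litter or colony, so age cannot be told apart from any other difference between the 2 sets of wild-type animals. The number of genes called depended heavily on the samples in the fit: it was 1 to 9 when any 1 array was left out, and 430 when all 12 arrays of the series shared the estimate of the spread and slide was a term. Mical1 was the 1 named gene called in every fit that left out an array.

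Il18 itself did not pass the test. Its log2 levels were 1.60, 1.76 and 1.52 at 6 weeks and 1.51, 1.63 and 1.92 at 12 weeks, a difference of 0.06 ± 0.12 (SE, adjusted p = 0.839, limma). The ages overlapped. In the knockout arrays the same probe lay between -0.32 and -0.17, below every wild-type array.

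The lowest adjusted p belonged to Mical1, which encodes a flavin monooxygenase that disassembles actin filaments. Its probe lies at chr10:41206772-41206831 on mm9, the build of the array files. The log2 levels were 0.97, 1.01 and 0.90 at 6 weeks and -1.44, -1.34 and -1.29 at 12 weeks. Mical1 thus fell by 2.32 ± 0.07 on the log2 scale (SE, adjusted p = 0.000857, limma), and 6-week signal was 4.99 times that at 12 weeks. The 3 arrays at 12 weeks were low together, far outside the range at 6 weeks. The 6 knockout arrays read 0.97 to 1.16, so all 9 arrays outside the 12-week wild-type group lay close together.

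Erdr1, a gene of the pseudoautosomal region whose product was named for erythroid differentiation, had the largest change of any called gene. Its log2 levels were 4.48, 5.23 and 3.71 at 6 weeks and -1.15, -1.55 and -0.71 at 12 weeks. The fall was 5.61 ± 0.41 on the log2 scale (SE, adjusted p = 0.028, limma), a 48.9-fold higher signal at 6 weeks. The 6 knockout arrays lay between 3.38 and 4.91 at both ages. A probe named only by a transcript cluster, TC1700876, followed almost the same values, 4.18, 5.05 and 3.44 at 6 weeks and -1.24, -1.69 and -0.90 at 12 weeks. It was named here after its values were seen.

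Nnt encodes nicotinamide nucleotide transhydrogenase, the inner-membrane enzyme that makes mitochondrial NADPH. It read 2.08, 2.07 and 2.06 at 6 weeks and 1.05, 1.19 and 1.05 at 12 weeks, at chr13:120124335-120124394 on mm9. The groups were well apart, and the fall was 0.97 ± 0.07 (SE, adjusted p = 0.0236, limma). In knockout brain Nnt lay between 2.29 and 2.51 at both ages. The other probes listed for Nnt were too dim to test.

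The remaining 8 named genes that fell had smaller changes, and their ages did not overlap. Mybpc3, known as the cardiac myosin-binding protein C gene, fell by 1.18 ± 0.12 (SE), Papola, the nuclear poly(A) polymerase, by 1.09 ± 0.09 and Slc16a7, the monocarboxylate transporter MCT2 of neurons, by 1.09 ± 0.10. Rgs7bp, which anchors RGS7-family regulators of G protein signalling at the membrane, fell by 0.92 ± 0.09. Mt3, the brain metallothionein that binds zinc and copper, fell by 0.59 ± 0.06, and Fam71e1 by 0.64 ± 0.06. Chrm1 and Mobp are described with their gene groups below. For 4 of these genes other probes gave smaller values: Slc16a7 differed by -0.28 on its other probe, Chrm1 by -0.24, Rgs7bp by -0.28 and -0.17, and Mobp by -0.35 and -0.19.

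Of the 13 named genes that rose, Il33 and Rpe65 had the lowest adjusted p. Il33 is a nuclear alarmin of the interleukin-1 family that in the adult brain is made mainly by oligodendrocytes and astrocytes. Its log2 levels were 1.45, 1.46 and 1.33 at 6 weeks and 2.44, 2.50 and 2.51 at 12 weeks. Il33 rose by 1.07 ± 0.06 (SE, adjusted p = 0.016, limma), to 2.11 times the 6-week signal, and the 12-week arrays were all high. In knockout brain it read 1.67 to 1.77 at 6 weeks and 1.90 to 2.14 at 12 weeks.

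Rpe65, the retinoid isomerase best known from the retinal pigment epithelium, read -3.14, -3.13 and -3.16 at 6 weeks and -2.19, -2.14 and -2.17 at 12 weeks. The spread within each age was small beside the rise of 0.98 ± 0.05 (SE, adjusted p = 0.0135, limma). Xdh, which encodes the xanthine dehydrogenase that forms uric acid, rose by 1.44 ± 0.13 and Fmo2, a flavin-containing monooxygenase, by 0.95 ± 0.10. Edn1, the vasoconstrictor endothelin 1, rose by 0.68 ± 0.06. Pmaip1, the pro-apoptotic NOXA, rose by 1.02 ± 0.10. Agxt2l1, a phospholyase of phosphoethanolamine, rose by 0.64 ± 0.07, and D4Wsu53e by 0.60 ± 0.06. Gdf15, a stress-induced cytokine of the TGF-beta superfamily, was not well above background on any 6-week array and was on all 3 at 12 weeks. It was therefore tested only through the age at which it is high, so its call is no support for a rise. Its signal was at least 2.55-fold higher at 12 weeks, taking for 6 weeks the dimmest signal that counted as above background.

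**Figure D1:**
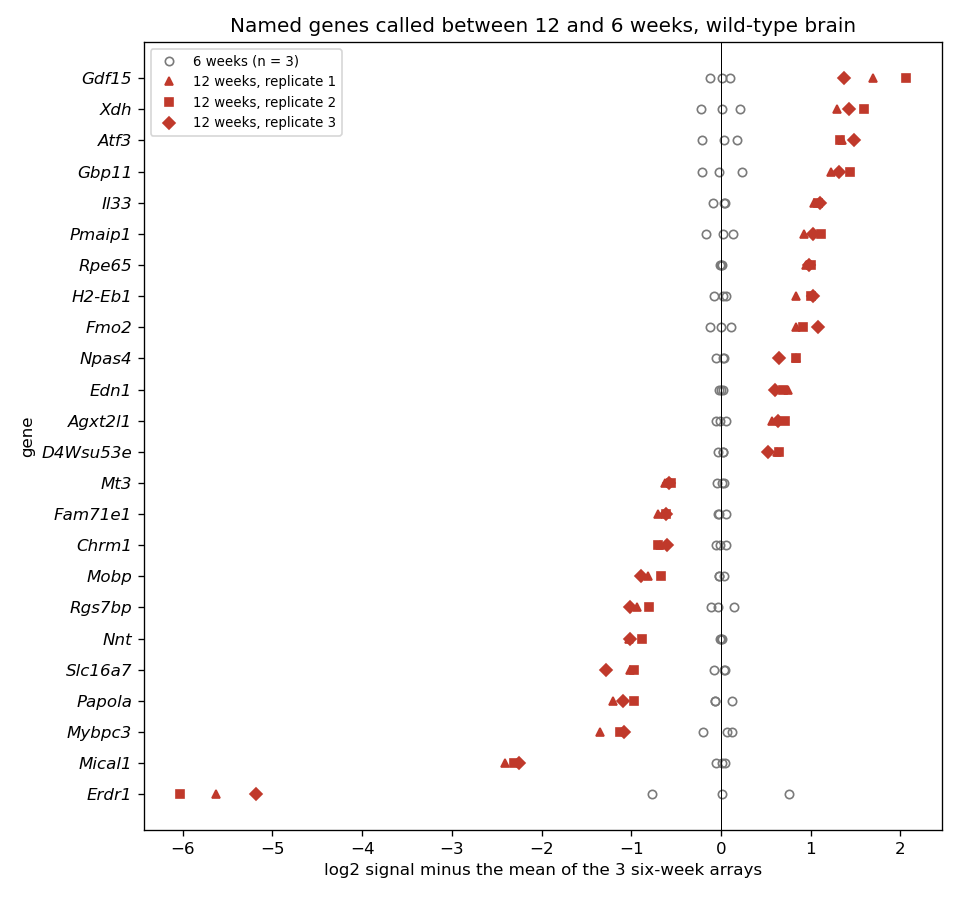
Level of each of the 24 named genes that passed the test, on each wild-type array, as log2 signal minus the mean of the 3 six-week arrays (x axis) by gene (y axis). Gdf15 was tested only through its 12-week arrays. Grey circles are 6-week arrays and red symbols are 12-week arrays; in every row the ages do not overlap, and Erdr1 lies farthest from 0 with a fall of 5.61.

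Genes that are switched on fast by neuronal activity were mostly higher at 12 weeks. Of 26 measured immediate early genes, 24 had a positive change, 18 were higher at an unadjusted p of 0.05 and none was lower, beside 9.12% and 7.73% of all genes. Their median change was 0.37 and 2 of them, Atf3 and Npas4, passed the adjusted threshold. Atf3, a stress- and activity-induced transcription factor of the ATF/CREB family, read -3.48, -3.72 and -3.33 at 6 weeks and -2.16, -2.19 and -2.02 at 12 weeks. It rose by 1.39 ± 0.11 (SE, adjusted p = 0.0373, limma), and every 12-week array was above every 6-week array. Npas4, a neuron-specific factor that tunes inhibitory synapses, read 0.78, 0.79 and 0.71 at 6 weeks and 1.60, 1.60 and 1.41 at 12 weeks. Its rise was 0.78 ± 0.08 (SE, adjusted p = 0.0416, limma), again without overlap.

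The sequences before the start of 4 of these genes are shown because they hold the short cAMP response element, TGACG, through which CREB activates many genes of this class. Capitals mark TGACG or its reverse complement CGTCA, and the coordinates are those of RefSeq on GRCm38.p6, which are not those of the array's mm9. Each run is the 250 bases before the listed start, read in the direction of the gene.
Atf3 (chr1:191183334-191183583, minus strand): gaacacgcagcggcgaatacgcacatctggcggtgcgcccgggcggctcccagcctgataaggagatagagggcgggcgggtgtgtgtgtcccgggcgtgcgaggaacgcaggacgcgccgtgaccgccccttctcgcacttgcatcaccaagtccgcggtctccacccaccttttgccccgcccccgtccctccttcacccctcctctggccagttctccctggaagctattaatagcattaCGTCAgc
Npas4 (chr19:4989972-4990221, minus strand): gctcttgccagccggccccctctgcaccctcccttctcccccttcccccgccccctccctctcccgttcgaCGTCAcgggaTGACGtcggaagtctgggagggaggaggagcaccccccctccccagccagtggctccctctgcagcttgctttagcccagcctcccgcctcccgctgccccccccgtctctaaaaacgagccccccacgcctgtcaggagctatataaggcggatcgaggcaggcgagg
Fos (chr12:85473640-85473889, plus strand): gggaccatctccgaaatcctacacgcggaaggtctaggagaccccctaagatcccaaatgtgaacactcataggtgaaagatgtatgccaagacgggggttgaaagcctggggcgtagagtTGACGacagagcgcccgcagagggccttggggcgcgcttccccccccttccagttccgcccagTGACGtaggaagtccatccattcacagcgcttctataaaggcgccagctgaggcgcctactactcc
Fosb (chr7:19310046-19310295, minus strand): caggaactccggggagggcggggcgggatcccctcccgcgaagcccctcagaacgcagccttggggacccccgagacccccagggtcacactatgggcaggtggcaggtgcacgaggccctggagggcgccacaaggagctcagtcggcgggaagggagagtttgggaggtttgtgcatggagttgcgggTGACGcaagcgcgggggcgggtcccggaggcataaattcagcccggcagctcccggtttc
On either strand of this window, TGACG occurred in 16 of the 22 measured immediate early genes with a listed start (72.7%). It occurred in 19.8% of all 27025 genes with a listed start, measured or not. In the other lists read, it occurred in 61.5% of heat shock, 31.6% of clock, 27.3% of interferon-stimulated and 8.7% of myelin genes. It was thus not particular to immediate early genes. The full palindrome TGACGTCA occurred in 4 of the 22 (18.2%) against 1.77% of all genes, and each such match also counts as a TGACG match. The serum response element core, the CArG box, occurred in 1 of the 22 (4.55%) against 1.62% of all genes.

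The 3 other genes of this class with the lowest p were Fos, Arc and Fosb, and none of them passed the adjusted threshold. Fos, a subunit of the AP-1 transcription factor, read 1.16, 0.94 and 0.98 at 6 weeks and 1.64, 1.87 and 1.70 at 12 weeks (difference 0.71 ± 0.09, adjusted p = 0.0657, limma). Arc, which controls AMPA receptor endocytosis at active synapses, read 4.18, 4.11 and 4.18 and then 4.59, 4.79 and 4.75 (difference 0.55 ± 0.08, adjusted p = 0.0657, limma). Fosb, another AP-1 subunit, differed by 0.68 ± 0.11. In all 3 the ages did not overlap. Egr2 differed by 0.55 ± 0.14, Junb by 0.54 ± 0.12 and the orphan receptor Nr4a1 by 0.40 ± 0.09. Values of the opposite sign were -0.18 for the MAP kinase phosphatase Dusp6 and -0.15 for the synaptic scaffold gene Homer1, whose other probes gave -0.18 to -0.39. Egr1, a widely used marker of this class, differed by 0.21 with an unadjusted p above 0.05, so the group was not uniform. The median of the group was 0.36, 0.39 and 0.31 in replicates 1, 2 and 3 at 12 weeks, each against the 6-week mean. With slide column as a term the count at an unadjusted p of 0.05 was 14 higher and 1 lower. Beside it stand 1669 of all 25965 genes higher and 2088 lower in that fit.

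Heat shock genes are chaperones and cofactors induced by proteotoxic stress. Of 17 measured, 5 were higher at an unadjusted p of 0.05 and none lower, beside 9.12% and 7.73% of all genes, with a median of 0.13. Hspa1a, the inducible HSP70, read -2.020, -2.074 and -2.067 at 6 weeks and -1.047, -1.005 and -1.336 at 12 weeks, without overlap. Its difference of 0.92 ± 0.10 did not pass (adjusted p = 0.0503, limma). With slide column as a term the group's count was 1 higher and its median 0.02.

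Clock genes, whose protein products activate and repress one another in a daily loop, differed in both directions. The core activator gene Arntl, which encodes BMAL1, and Nfil3, a repressor that acts at D-boxes, were higher at 12 weeks. Arntl read 0.85, 0.85 and 0.87 at 6 weeks and 1.34, 1.37 and 1.35 at 12 weeks. The difference of 0.50 ± 0.05 stood just outside the threshold (adjusted p = 0.0503, limma), although the ages were well apart. Nfil3 differed by 0.55 ± 0.07 (adjusted p = 0.057, limma). BMAL1 and CLOCK are known to activate their targets through E-boxes. Dbp, a PAR-domain factor that drives D-box genes, read 5.54, 5.52 and 5.51 and then 4.56, 4.65 and 4.93, without overlap (difference -0.81 ± 0.10, adjusted p = 0.0657, limma). The period gene Per2 differed by -0.56 ± 0.09 and Per1 by -0.27 ± 0.10. Gm129, the repressor now called Ciart, differed by -0.51 ± 0.10, Nr1d2 by -0.28 ± 0.07 and Tef, a relative of Dbp, by -0.23 ± 0.07. These 6 genes, none of which passed the adjusted threshold, were named after their values were seen. Of 23 measured clock genes, 3 were higher and 7 lower at an unadjusted p of 0.05, beside 9.12% and 7.73% of all genes, the median was -0.10 and none passed the adjusted threshold. Replicate 1 alone gave a median of -0.12.

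The E-box is shown in the start region of Gm129, where CACGTG, in capitals, occurs 3 times in the 250 bases before the start. It reads the same on both strands.
Gm129 (chr3:95882229-95882478, minus strand): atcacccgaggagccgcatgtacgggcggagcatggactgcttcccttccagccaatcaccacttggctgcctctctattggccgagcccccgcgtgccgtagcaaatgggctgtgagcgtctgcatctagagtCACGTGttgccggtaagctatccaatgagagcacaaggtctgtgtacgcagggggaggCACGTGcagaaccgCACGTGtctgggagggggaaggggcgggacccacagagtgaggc
CACGTG occurred in 5 of the 19 measured clock genes with a listed start (26.3%) and in 6.86% of all genes. It also occurred in 22.7% of immediate early, 15.4% of heat shock and 4.35% of myelin genes, and in no interferon-stimulated gene. The D-box TTANGTAA occurred in 2 of the 19 (10.5%) against 2.44% of all genes.

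Interferon-stimulated and MHC genes were mostly higher at 12 weeks. Of 29 measured interferon-stimulated genes, 12 were higher at an unadjusted p of 0.05 and none lower, beside 9.12% and 7.73% of all genes. The median was 0.22, and none passed the adjusted threshold. H2-K1, a classical MHC class I heavy chain, read 2.01, 2.10 and 2.02 at 6 weeks and 2.59, 2.56 and 2.52 at 12 weeks. Its difference was 0.51 ± 0.06 without overlap (adjusted p = 0.057, limma), and 0.29 on its other probe. Xaf1, a pro-apoptotic interferon target, read -1.26, -1.27 and -1.16 and then -0.60, -0.51 and -0.28, a difference of 0.77 ± 0.10. Cd274, the checkpoint ligand PD-L1, differed by 0.72 ± 0.10, the immunoproteasome subunit Psmb9 by 0.44 ± 0.06 and the antiviral enzyme Rsad2 by 0.76 ± 0.13. The class I genes H2-D1 and B2m differed by 0.25 ± 0.06 and 0.28 ± 0.08. Several classical members were near 0: Ifit1 differed by 0.02, Isg15 by 0.07 and Usp18 by -0.04. Ifitm3, which blocks viral entry, had the lowest value, -0.65 ± 0.33. The median was 0.09, 0.17 and 0.39 in replicates 1, 2 and 3, and with slide column as a term 7 members were higher and none lower.

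MHC class II genes, carried by antigen-presenting cells, differed in the same direction. H2-Eb1 rose by 0.96 ± 0.08 (SE, adjusted p = 0.0373, limma), from -1.05, -1.19 and -1.10 to -0.28, -0.11 and -0.09, with the ages apart. H2-Aa differed by 0.90 ± 0.16 and H2-Ab1 by 0.73 ± 0.11, and neither passed. Gbp11, an interferon-inducible GTPase gene, rose by 1.33 ± 0.13, from -4.12, -4.57 and -4.38 to -3.12, -2.91 and -3.04. Over the 26 measured microglial and macrophage markers, which include the class II genes H2-Aa and H2-Ab1, the median was 0.04, with 2 higher and 1 lower at an unadjusted p of 0.05, and 2 and 2 with slide column as a term. Of 13 measured lymphocyte markers 3 were higher and none lower at an unadjusted p of 0.05, and 8 listed ones were not measured. Among the 13, Cd2 was above background on only 3 of the 6 arrays. With only probes above background on all 6 arrays, 2 lymphocyte markers were higher and none lower. Beside both lists stand, in the fit without slide column, 9.12% of all genes higher and 7.73% lower at that threshold.

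The start regions of Rsad2 and Gbp2 are shown because they hold the core of the interferon-stimulated response element, spelled GAAA, any 2 bases, GAAA. Capitals mark it or its reverse complement, TTTC, any 2 bases, TTTC.
Rsad2 (chr12:26456453-26456702, minus strand): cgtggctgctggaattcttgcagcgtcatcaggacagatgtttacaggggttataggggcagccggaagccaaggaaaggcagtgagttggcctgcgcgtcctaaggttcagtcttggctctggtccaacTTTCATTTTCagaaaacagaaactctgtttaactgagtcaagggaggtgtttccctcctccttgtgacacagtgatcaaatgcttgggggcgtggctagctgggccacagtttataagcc
Gbp2 (chr3:142620413-142620662, plus strand): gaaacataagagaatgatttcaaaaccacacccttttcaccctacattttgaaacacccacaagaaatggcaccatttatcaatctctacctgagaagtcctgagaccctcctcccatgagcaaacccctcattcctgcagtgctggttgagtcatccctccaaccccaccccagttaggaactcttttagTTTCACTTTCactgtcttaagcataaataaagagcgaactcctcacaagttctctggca
Either strand held this core in 10 of the 22 measured interferon-stimulated genes with a listed start (45.5%) and in 3.46% of all genes. It was also held by 22.7% of immediate early genes, and by no clock, heat shock or myelin gene. Gbp2 itself differed by 0.45 ± 0.13.

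Genes of the interleukin-18 pathway and the inflammasome were measured for 20 of 29 listed members. The interleukin-18 receptor genes Il18r1 and Il18rap were not among them, as their probes were above background on no wild-type array. Besides Il33, which rose, 7 were higher at an unadjusted p of 0.05 and none was lower, beside 9.12% and 7.73% of all genes, and the median was 0.17. Casp1, the protease that activates interleukin-18, read -0.88, -0.90 and -0.74 at 6 weeks and -0.47, -0.54 and -0.34 at 12 weeks. The difference was 0.39 ± 0.08, and the ages did not overlap. Il18bp, the soluble inhibitor of interleukin-18, differed by 0.44 ± 0.13, the receptor Il1r1 by 0.43 ± 0.08, the adaptor Myd88 by 0.32 ± 0.06 and the kinase Irak1 by 0.29 ± 0.08. Gsdmd, the pore-forming gasdermin D, differed by 0.18 ± 0.07. Aim2, a sensor of cytosolic DNA, was not well above background on any 6-week array, and its signal was at least 1.24-fold higher at 12 weeks. It was tested only through its 12-week arrays, so its place in the count is no support for a rise. None of these 7 passed the adjusted threshold, and they were named after their values were seen. Replicates 1, 2 and 3 gave medians of 0.23, 0.19 and 0.25. With only probes above background on all 6 arrays, 8 members including Il33 were higher and none lower.

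Myelin genes were mostly lower at 12 weeks. Of 30 measured genes of myelin and mature oligodendrocytes, 16 were lower and 3 higher at an unadjusted p of 0.05, beside 7.73% and 9.12% of all genes, with a median of -0.20. Mobp, a structural protein of compact myelin, read 4.86, 4.81 and 4.81 at 6 weeks and 4.01, 4.16 and 3.93 at 12 weeks. It fell by 0.79 ± 0.08 (SE, adjusted p = 0.0416, limma) with no overlap. The other called member was Il33, which rose. Among the enzymes of myelin lipid synthesis in the list, Ugt8a differed by -0.64 ± 0.09, Gal3st1 by -0.52 ± 0.06 and Fa2h by -0.48 ± 0.07. Among structural proteins, Mag, the adhesion molecule of the inner myelin face, differed by -0.42 ± 0.06, Cnp by -0.45 ± 0.06, Mog by -0.41 ± 0.06, the tight-junction claudin Cldn11 by -0.46 ± 0.08 and Mbp by -0.28, or -0.10 and -0.09 on its other probes. Ermn, a cytoskeletal protein of mature oligodendrocytes, had the lowest value, -1.04 ± 0.24, with 4.82, 4.78 and 5.05 before 4.22, 4.02 and 3.29. Its 12-week arrays were all lower, replicate 3 most of all, but its other probe differed in the opposite direction by 0.20 ± 0.11. Apart from Mobp and Il33, no gene of this group passed the adjusted threshold. In the other direction, Opalin and Qdpr had positive values of 0.37 and 0.26. The median was -0.26, -0.18 and -0.21 in replicates 1, 2 and 3, and 15 members were lower and 1 higher with slide column as a term.

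The immature stages of the lineage showed values of both signs. Among 18 markers of oligodendrocyte precursors 1 was higher and 3 were lower at an unadjusted p of 0.05, beside 9.12% and 7.73% of all genes, and the median was -0.02. Once slide column was a term, 3 were higher and 3 lower. Enpp6, a marker of newly forming oligodendrocytes, read -1.32, -1.73 and -1.63 at 6 weeks and -2.56, -2.54 and -2.20 at 12 weeks. The difference was -0.87 ± 0.15, without overlap (adjusted p = 0.0935, limma), and -0.42 on its other probe. Gpr17, a receptor of committed precursors, differed by -0.44 ± 0.08, while Bcas1, also a marker of early myelinating cells, differed by 0.35 ± 0.07. In the cell cycle and neuroblast group of 31, 8 were lower and 1 higher. Top2a, the topoisomerase of dividing cells, which was above background on 2 of 3 arrays at 12 weeks, differed by -0.73 ± 0.20, the proliferation marker Mki67 by -0.45 ± 0.13 and Cdk1 by -0.47 ± 0.15. None of the genes of these 2 groups passed the adjusted threshold, and Bcas1, Mki67 and Cdk1 were named after their values were seen. With slide column as a term the cell cycle count was 4 lower and 2 higher.

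**Figure D2:**
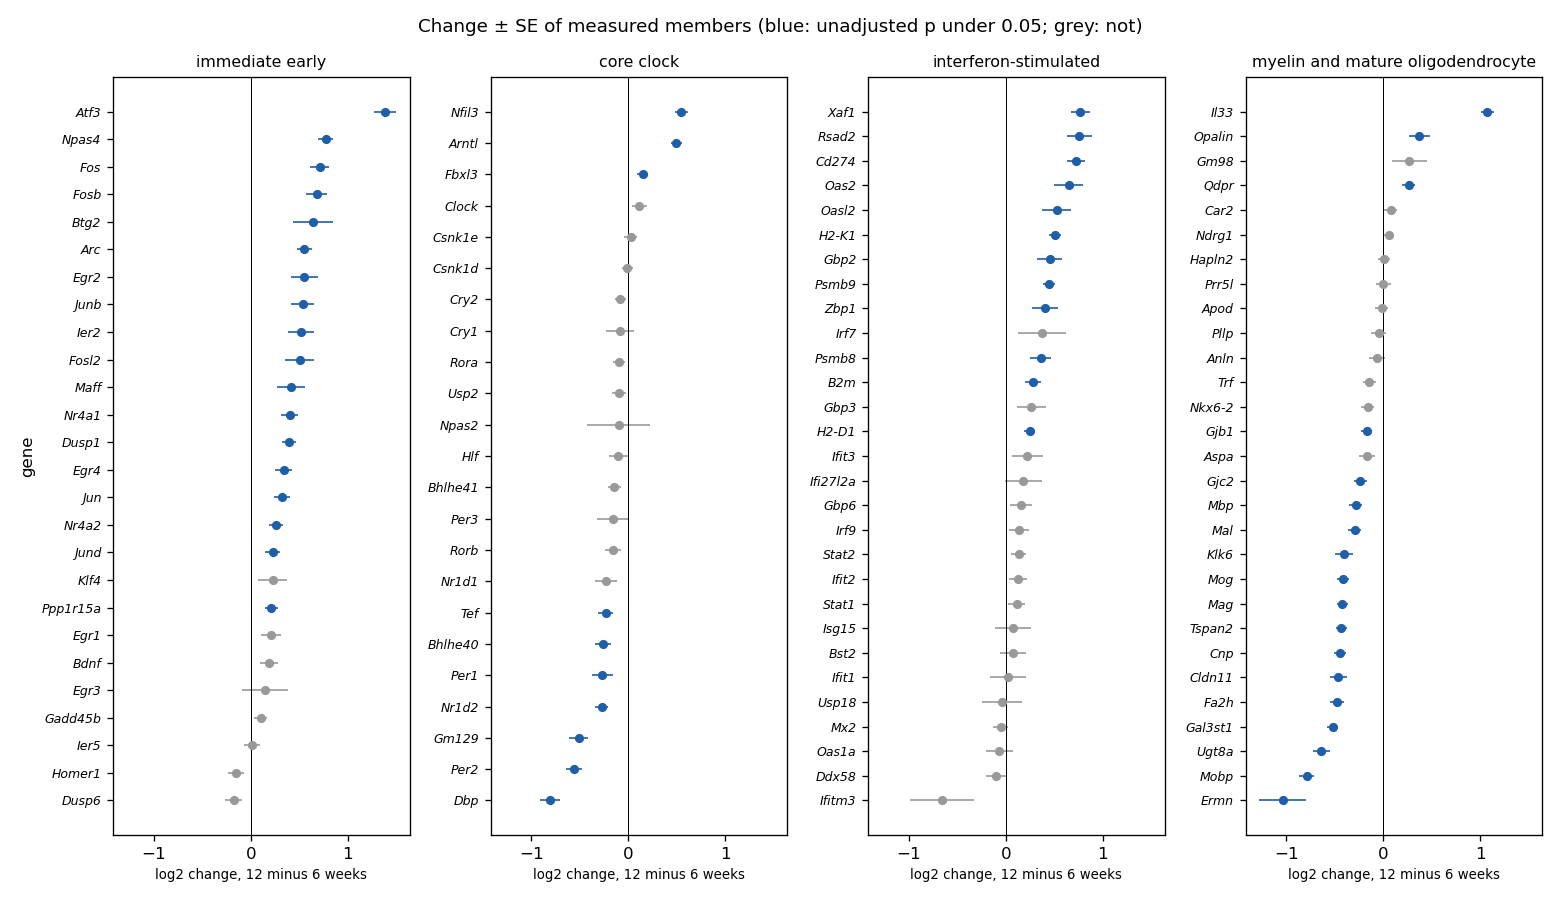
Change with age (x axis, log2, 12 minus 6 weeks, with SE) of the measured members (y axis) of 4 gene lists, 1 myelin gene left out. Blue points have an unadjusted p under 0.05 and grey points do not; 18 of 26 immediate early genes are blue on the right of 0, and most blue myelin genes lie on the left.

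Of 28 measured genes of the monoamine and acetylcholine systems 4 were lower and 1 higher at an unadjusted p of 0.05, beside 7.73% and 9.12% of all genes. The median was -0.10, and with slide column as a term 6 were lower and 3 higher. Chrm1, the main muscarinic receptor of the forebrain, read 1.71, 1.60 and 1.65 at 6 weeks and 0.97, 0.95 and 1.06 at 12 weeks. It fell by 0.66 ± 0.07 (SE, adjusted p = 0.0416, limma), and in knockout brain it lay between 1.43 and 1.72 at both ages. Chat, the enzyme that makes acetylcholine, read 0.72, 0.55 and 0.77 and then -0.45, -0.12 and -0.25, without overlap. Its difference of -0.96 ± 0.11 did not pass (adjusted p = 0.057, limma). Chrm2, a presynaptic muscarinic receptor, differed by -0.52 ± 0.11. Chat and Chrm2 were named after their values were seen.

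Genes of the mitochondrial respiratory chain were lower by small amounts. Of 55 measured subunits, 9 were lower at an unadjusted p of 0.05 and none higher, beside 7.73% and 9.12% of all genes, with a median of -0.12, and none passed the adjusted threshold. The ATP synthase subunit Atp5g1 differed by -0.30 ± 0.06 and the cytochrome oxidase subunit Cox6b1 by -0.33 ± 0.07. Here the arrays differed among themselves: the median was -0.23 in replicate 1 and -0.05 and -0.04 in replicates 2 and 3. In the fit with slide column 26 subunits were lower and none higher, beside 2088 of all 25965 genes lower and 1669 higher in that fit.

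The genes of the brain's borders and vessels were counted next. Of 24 meningeal and fibroblast genes 8 were higher and 1 lower at an unadjusted p of 0.05, beside 9.12% and 7.73% of all genes, with a median of 0.17. Slc6a13, a GABA transporter of the leptomeninges, read 0.535, 0.457 and 0.340 at 6 weeks and 1.002, 1.271 and 1.126 at 12 weeks, without overlap, with a difference of 0.69 ± 0.09. Col1a1, the fibrillar collagen chain of the same cells, differed in the opposite direction by -0.45 ± 0.09. Of 25 endothelial and pericyte genes 7 were higher and 1 lower, with a median of 0.13, and Abcb1a, the efflux pump P-glycoprotein, differed by 0.46 ± 0.07. Of 25 choroid plexus genes 5 were higher and none lower, with a median of 0.20. With slide column as a term the meningeal count was 3 higher and 1 lower, with a median of 0.05, the endothelial count 5 higher and none lower, and the choroid plexus count 4 higher and none lower.

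The neuronal groups lay near 0. The median was -0.03 over 43 genes of glutamate receptors and the postsynapse, 0.00 over 31 genes of GABA receptors and interneurons, -0.01 over 34 genes of presynaptic vesicles and 0.01 over 39 voltage-gated channels. The 20 astrocyte markers had a median of -0.03 and the 30 genes of cholesterol synthesis one of -0.02. In each of these groups at most 3 members were higher and at most 3 lower at an unadjusted p of 0.05, beside 9.12% and 7.73% of all genes.

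**Figure D3:**
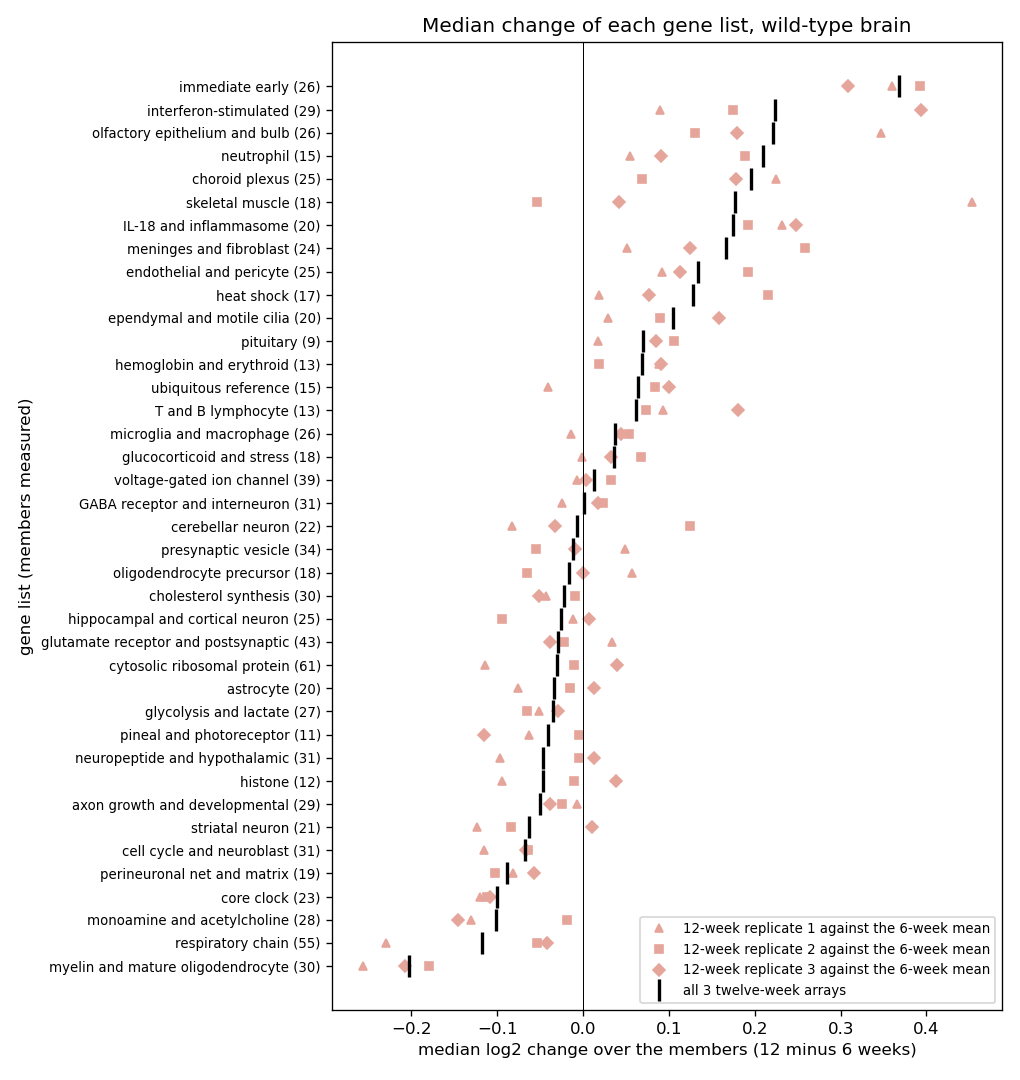
Median log2 change with age (x axis) over the measured members of each gene list (y axis, number measured in brackets). Black bars use all 3 twelve-week arrays and red symbols use 1 each against the 6-week mean; the immediate early list is highest at 0.37 and the myelin list lowest at -0.20, and the symbols show how far single arrays spread.

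The labelled tissue was checked against its markers. Neuronal Rbfox3 and Snap25, astrocytic Gfap and myelin Mbp were well above background on all 6 arrays. Markers of tissues that may be taken along with a brain were also read. Of 17 pituitary genes 8 were not measured; the hormone gene Gh was above background on 1 array of each age and Prl on 1 array at 12 weeks. Cga, the common subunit of the pituitary glycoprotein hormones, was above background on 1 array at 6 weeks and on 3 at 12 weeks. It was tested only through its 12-week arrays, differed by 2.76 ± 0.91 and did not pass (adjusted p = 0.219, limma). Over the 18 skeletal muscle genes the median was 0.45 in replicate 1 and -0.05 and 0.04 in replicates 2 and 3. At an unadjusted p of 0.05 the olfactory list of 26 had 2 members higher and 2 lower, with a median of 0.22. Its means in single 6-week arrays, against the 6-week mean, ran from -0.25 to 0.25. The neutrophil list of 15 had 4 higher and none lower, with a median of 0.21. Beside both stand 9.12% of all genes higher and 7.73% lower. Of the neutrophil genes, Stfa3, Retnlg and Cd177 were above background on only 3, 4 and 5 of the 6 arrays. With only probes above background on all 6, 3 were higher and the median was 0.08. With slide column as a term the median was 0.05. S100a8 and S100a9, the calprotectin subunits of neutrophils, differed by 0.34 ± 0.26 and 0.22 ± 0.22 with overlapping ages. The part of these tissues in the results above was not tested. The Y-linked genes Ddx3y, Eif2s3y and Uty were above background on all 6 arrays and Kdm5d on 2 of 3 at 6 weeks and 3 at 12 weeks, while Xist and Tsix were on none.

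The change with age in wild type was then set against that in Il18 knockout brain. Of the 6-week knockout arrays only replicate 3 shared a slide with the 12-week knockout arrays. A fit with slide as a term therefore sets the 12-week knockout mean against that 1 array. Each knockout change and each difference between genotypes from that fit rests on it. The test of the difference used all 12 arrays with slide as a term, because the knockout arrays lie on 2 slides, and it called 28 of 25965 genes (0.108%), with 2416 (9.3%) at an unadjusted p of 0.05. Among the named genes 11 passed. Mical1 changed by -0.03 ± 0.09 in knockout brain, and the difference between genotypes was -2.29 ± 0.11 (SE, adjusted p = 0.000102, limma). Erdr1 differed between genotypes by -6.27 ± 0.64 and Nnt by -0.91 ± 0.10. For these 3 genes the 12-week wild-type arrays were low and the arrays of the other groups were not. The labels give no litter or colony, so age cannot be told apart here from anything else that set these wild-type animals apart. The difference between genotypes was called in 8 of 11 alternatives for Erdr1 and in 7 for Nnt.

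For Atf3 the change had the opposite sign in the genotypes. Knockout brain read -2.08, -1.86 and -1.72 at 6 weeks and -3.05, -3.10 and -2.88 at 12 weeks, without overlap. With slide as a term its change was -1.29 ± 0.16, which sets the 12-week mean against replicate 3 at 6 weeks, -1.72. The difference between genotypes was 2.68 ± 0.19 (SE, adjusted p = 0.00228, limma), and it was called in all 11 alternatives tried, as was that of Mical1. None of the 11 left out a knockout array, so they do not show how far the calls depend on one. Arc changed by -0.93 ± 0.16 in knockout brain and Egr2 by -1.39 ± 0.22, and their differences between genotypes were 1.49 ± 0.19 and 1.94 ± 0.26, called in 2 and 3 of the 11 alternatives. Fos changed by -1.08 ± 0.28 in knockout brain, and its difference of 1.79 ± 0.34 did not pass (adjusted p = 0.151, limma). Over the 26 immediate early genes the median change was 0.37 in wild type and -0.34 in knockout brain, the latter against replicate 3 at 6 weeks.

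Of the clock genes, Arntl and Nfil3 differed between genotypes. Arntl changed by -0.23 ± 0.07 in knockout brain (difference 0.73 ± 0.08) and Nfil3 by -0.40 ± 0.10 (difference 0.95 ± 0.12). Pdk4, the kinase that shuts pyruvate dehydrogenase, differed between genotypes by 0.73 ± 0.10, Pmaip1 by 1.24 ± 0.17 and Chrm1 by -0.76 ± 0.11. The differences of Pdk4 and Pmaip1 were called in none of the 11 alternatives, that of Nfil3 in 1, that of Chrm1 in 2 and that of Arntl in 4. Il33 changed by 0.31 ± 0.10 in knockout brain, and its difference of 0.77 ± 0.13 did not pass (adjusted p = 0.102, limma). Myelin genes had medians of similar size, -0.20 in wild type and -0.25 in knockout brain, and Mobp changed by -0.59 ± 0.12 in the latter. The difference for Mobp, -0.20 ± 0.14, did not pass.

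**Figure D4:**
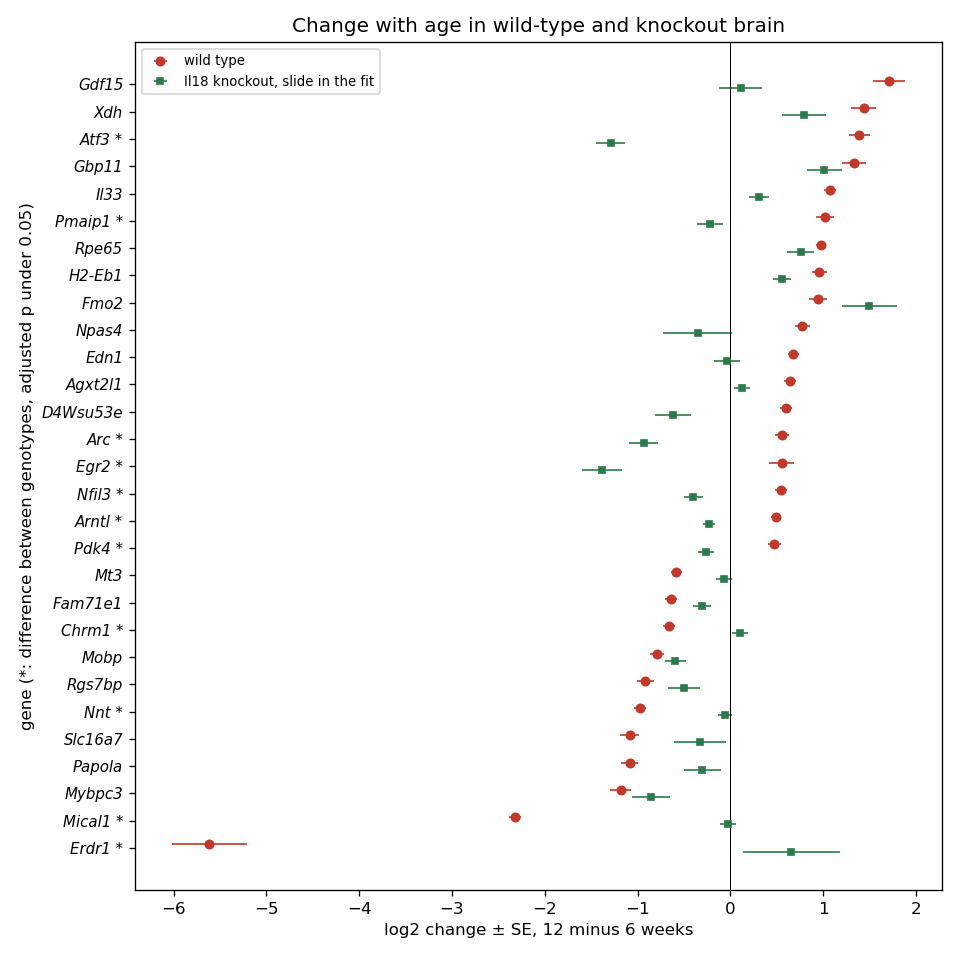
Change with age (x axis, log2 ± SE, 12 minus 6 weeks) of the named genes called for age in wild type or for the difference between genotypes (y axis). Each knockout change sets the 12-week mean against replicate 3 at 6 weeks. Circles are wild type and squares are Il18 knockout with slide in the fit; asterisks mark the 11 genes whose difference passed, among them Atf3 with 1.39 in wild type and -1.29 in knockout.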

How the data were processed

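Scans of the 12 arrays and a table of values were deposited. The software, per the submitters' processing notes, was Agilent Feature Extraction 10.7.3.1. Signal columns in both hold intensity without a physical unit, per the file headers, and the deposited table differed from the processed signal by at most 0.498%. The other deposited columns are, per the file headers, marks of 0 or 1 for control, outlier, saturated and above-background spots. Outlier spots were left out (169 to 220 per wild-type array), none was saturated, log2 of the array's own 75th percentile over non-control spots was subtracted, and spots of a probe were averaged. Of 55681 probes 36335 were well above background on all 3 arrays of an age. The brightest probe was kept per gene name (6912 genes had several), and 15209 names match a current RefSeq symbol. Levels are not corrected for probe affinity. The number of arrays limits the precision.

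Ages were compared with limma 3.58.1 in R 4.3.3 (lmFit, eBayes, two-sided) on the 6 wild-type arrays with 4 residual degrees of freedom, and the difference between genotypes on 12 arrays with slide as a term and 7. Both were run on simulated arrays with independent noise per gene and planted changes larger than those of most named genes. Those arrays held no slide column effect, so the check does not cover one, nor smaller changes. P-values were adjusted over all genes. The replicate numbers were not used to pair arrays: the deviations of same-numbered arrays correlated at 0.0205, 0.116 and -0.164. The 40 gene lists and the genes named were chosen with earlier results of these data known, so lists have counts and medians and no test. Named are the 14 largest called rises and falls with a gene symbol, up to 6 called members of a list or, with none called, the 2 with the lowest p, all members of lists with a median beyond 0.2, Il18, the sex-linked genes and genes changed between genotypes earlier; others are marked in the text as named after their values were seen. Alternatives were the fit, blocks, background correction, scaling, filter, probe rule and leaving out each array. Promoter sequences are from RefSeq on GRCm38.p6. 1 myelin gene is counted in its list but not reported here.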

Additional observations from a re-analysis of the deposited data

Results flagged for a closer look

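The change with age differed between wild-type and Il18 knockout brain, by limma's test of that difference with slide as a term, for 11 of the named genes. The difference, wild type minus knockout on the log2 scale, was -6.27 for Erdr1, -2.29 for Mical1, -0.914 for Nnt and -0.765 for Chrm1. It was 2.68 for Atf3, 1.94 for Egr2, 1.49 for Arc, 1.24 for Pmaip1, 0.948 for Nfil3, 0.735 for Pdk4 and 0.727 for Arntl. Over the 11 alternatives Mical1 stayed between -2.39 and -2.25 and Atf3 between 2.51 and 2.77, and both were called in all of them. The others were called in fewer: Erdr1 in 8, Nnt in 7, Arntl in 4, Egr2 in 3, Arc and Chrm1 in 2, Nfil3 in 1, and Pdk4 and Pmaip1 in 0. With slide as a term the knockout change rested on replicate 3 at 6 weeks, and no alternative left out a knockout array. Groups of 3 arrays were too small for a search for single outlying arrays.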

How the results depend on the processing

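The count of genes called with age in wild type, 39, was 180 with all 12 arrays and 1 mean per group (30 of the genes shared), 430 with slide added (32 shared), 101 with slide column as a term (13 shared) and 17 in column 2 only (1 shared). It was 158 after normexp background correction, 341 with a trended, robust eBayes fit, 67 with probes above background on all 6 arrays and 1 with no filter. Median scaling gave 32, of which 21 rose and 11 fell, against 20 and 19. Leaving out 1 array gave 1 to 9; the lone calls were Mical1. With replicate number as a block, which the pairing check does not back, 0 genes were called by limma (4093 at an unadjusted p of 0.05). The deposited table, quantile normalization and the mean over probes gave 38, 42 and 29. The 24 named called genes kept their sign in all 19 alternatives (18 for Gdf15, which the strictest filter removed), and Mical1 was called in 18. With slide column as a term 19 of the 24 lost their call. For the difference between genotypes, 28, the counts were 71 without the slide block (13 shared), 6 with the replicate block (5 shared), 15 after quantile normalization, 18 with median scaling, 19 with no filter and 4 to 18 without 1 wild-type array. Over the alternatives 11 to 20 immediate early genes were higher and 13 to 18 myelin genes lower at an unadjusted p of 0.05, and 5 to 12 interferon-stimulated genes were higher. Depth in the sense of signal limits the dimmest genes, among them Gdf15, Aim2 and Cga.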

Other observations

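Further values fell outside the groups above. The called transcript with the lowest adjusted p after Mical1 carried only an Ensembl transcript name, ENSMUST00000138201. It read -4.61, -4.65 and -4.65 at 6 weeks and -3.04, -2.76 and -2.88 at 12 weeks, a rise of 1.74 ± 0.09 (SE, adjusted p = 0.00949, limma), and was named after its values were seen. In all, 15 of the 39 called genes carry only a clone, transcript, cluster or locus name. Among metabolic and stress genes, Pdk4 differed by 0.47 ± 0.07, Angptl4, a secreted inhibitor of lipoprotein lipase, by 0.47 ± 0.11 and Plin4, a lipid droplet protein, by 0.59 ± 0.13, none past the adjusted threshold. Lhb, the beta subunit of luteinizing hormone, differed by -0.42 ± 0.06. Hnf4a, a nuclear receptor of liver and gut, was not well above background on any 6-week array, and its signal was at least 1.64-fold higher at 12 weeks. It was tested only through its 12-week arrays and did not pass (adjusted p = 0.206, limma).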
